A study of Homo sapiens with 6 samples.

Results

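Hyaluronan is a long unbranched sugar polymer of the extracellular matrix. It is built at the plasma membrane by the hyaluronan synthases from UDP-glucuronate and UDP-N-acetylglucosamine, is cut by hyaluronidases, and is bound by receptors such as CD44 and HMMR (also known as RHAMM). In carcinomas the polymer and its receptors are known for roles in adhesion, migration and growth. The 9 genes described here are a fixed set of names, matched by current symbol to the rows of the count table. They are *UGDH*, which makes UDP-glucuronate, the synthases *HAS2* and *HAS3*, the hyaluronidases *HYAL1*, *HYAL2* and *HYAL3*, the hyaluronan-binding protein *CEMIP*, which takes part in hyaluronan breakdown, and the receptors *CD44* and *HMMR*. All 9 had a row among the 63677 genes of the table, of which 23675 had counts. After the filter on low counts 12507 genes were tested, and 6 of the 9 were among them.

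The cells were labelled LoVo, an established line from a human colorectal cancer. They received a combination of 2 siRNAs against the long noncoding RNA *SNHG15*, or a negative control siRNA (scramble), at 25 nM for 48 h, and each condition was sequenced in 3 libraries with a stranded mRNA kit. The comparison therefore rests on a single cell line, and because the siRNAs were given together their effects cannot be told apart in these libraries. By qRT-PCR, the study reports *HAS2* among the genes deregulated when either siRNA was used alone or when both were. The study describes its replicates as biological, but the labels do not tie them to separate cultures, so the p-values measure the spread between these libraries.

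The targeted gene was read first. *SNHG15* had 261 to 290 CPM (counts relative to the TMM-scaled library total, the level used throughout) in the scramble libraries and 77.2 to 87.2 in the siRNA libraries, and fell by 1.74 on the log2 scale (SE 0.12, adjusted p = 2.62e-05, edgeR). Library totals lay between 3446922 and 10256710 counts, with scramble replicate 3 the shallowest. The label LoVo was then checked against markers. Of 10 epithelial and intestinal markers, *KRT8*, *KRT18*, *CDH1* and *CDX2* were counted in every library, from 166 to 493 counts for *KRT8*, whereas *EPCAM*, *KRT19*, *KRT20*, *CDX1*, *VIL1* and *CEACAM5* had at most 1 count in any library. The summed level of the list was 102 to 110 CPM in the scramble and 106 to 117 CPM in the siRNA libraries. *AXL* (2046 to 6750 counts), *ZEB1* (610 to 1807) and *VIM* (214 to 692), genes of mesenchymal cells looked up after the values were seen, were counted in all 6 libraries. *AXL* had 573 to 671 CPM with scramble and 467 to 508 with the siRNAs (log2 difference -0.36, adjusted p = 0.0902), *VIM* 64.7 to 69.6 and 40.6 to 63.3 (-0.38, adjusted p = 0.177) and *ZEB1* 178 to 184 and 195 to 210 (0.16, adjusted p = 0.417). None passed the test. The conditions did not overlap for any of the 3, a result that 28.8% of all genes tested shared. The missing epithelial markers go against the label, while the counted ones, *CDX2* among them, do not. The identity of the cells is in doubt, and other cells and genes lost in counting cannot be told apart here. Of 10 fibroblast markers, 8 had at most 3 counts in every library, and *COL6A3* led the list with 4 to 17. The list summed to 1.41 to 2.49 CPM in the scramble and 2.63 to 3.16 CPM in the siRNA libraries. *COL3A1*, *DCN*, *LUM* and *FAP* were at 0. Endothelial markers reached at most 2 counts (*CDH5*), with *KDR* and *TEK* at 0, and leukocyte markers at most 1 count, with *CD14* and *LYZ* at 0. Some genes that most or all dividing cells use were also at or near 0, namely *TTK* and *RDX* at 0 in every library and *POLR2B* at 2 to 32 counts, so a low count below is a value of this table and may not be the level in the cells. The libraries are called by their labels throughout, and the part of these features in the results was not tested. In bulk RNA, fewer cells of a type and less RNA per cell cannot be told apart.

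Of the 6 hyaluronan genes tested, *HAS2* and *CD44* were lower with the *SNHG15* siRNAs, none was higher, and *UGDH*, *HAS3*, *HYAL2* and *HYAL3* did not pass the test at an adjusted p under 0.05. Over all genes tested, 5.36% were called (2.23% lower and 3.13% higher). In 2 of the 6, again *HAS2* and *CD44*, the libraries of the conditions did not overlap, which was the case for 28.8% of all genes tested. The median log2 fold change was -0.02 over the 6 and 0.00 over all genes tested. These counts do not describe the whole set, because *HMMR*, *HYAL1* and *CEMIP* were under the filter, and because *HAS2* passed it through the scramble libraries and *HYAL3* needed the siRNA libraries to pass it. With DESeq2, 6.05% of genes were called and the same 2 members were past the threshold.

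**Figure D1:**
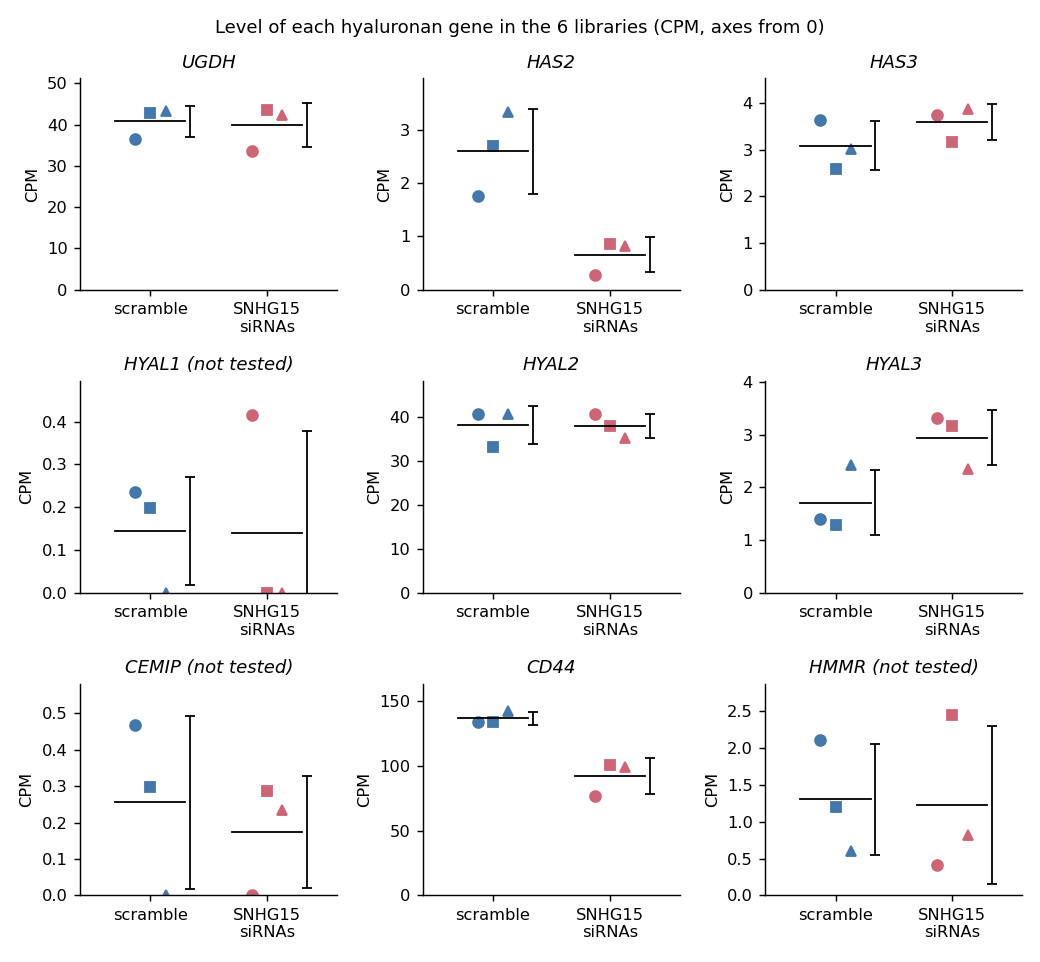
Level of each of the 9 hyaluronan genes in the 3 scramble (blue) and 3 *SNHG15* siRNA (red) libraries, in CPM on linear axes from 0. Circles, squares and triangles are replicates 1, 2 and 3, horizontal lines are means and bars beside them are SD (cut at 0 for *HYAL1*). The libraries separate for *HAS2* and *CD44* and overlap for the other 7 genes.

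Before the values, the promoters of 3 members are shown, chosen because they include the called receptor *CD44*, the other receptor *HMMR*, and *HYAL3*, the hyaluronidase with the largest difference. Each runs from 250 bases before to 50 bases after the start of the canonical GENCODE transcript on GRCh37, 5′ to 3′ on the strand of the gene. Capitals mark matches, on either strand, to the GC box GGGCGG and to the CCAAT box, whose letters are its name. The E-box CACGTG was searched likewise. So was the AP-1 motif TGANTCA. A match on the opposite strand appears as its reverse complement, and no motif contains another.

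*CD44*, chr11:35160468-35160767, plus strand: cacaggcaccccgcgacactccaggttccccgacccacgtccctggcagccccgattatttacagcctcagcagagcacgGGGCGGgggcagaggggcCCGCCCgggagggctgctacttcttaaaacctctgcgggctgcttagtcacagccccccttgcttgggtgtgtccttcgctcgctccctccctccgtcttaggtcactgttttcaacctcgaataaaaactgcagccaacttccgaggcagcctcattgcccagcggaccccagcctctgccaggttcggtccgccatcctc

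*HMMR*, chr5:162887388-162887687, plus strand: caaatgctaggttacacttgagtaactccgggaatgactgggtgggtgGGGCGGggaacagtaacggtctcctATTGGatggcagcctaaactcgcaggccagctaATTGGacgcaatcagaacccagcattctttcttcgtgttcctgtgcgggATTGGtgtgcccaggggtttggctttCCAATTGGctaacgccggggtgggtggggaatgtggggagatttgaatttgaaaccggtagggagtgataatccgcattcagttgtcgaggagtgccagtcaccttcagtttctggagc

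*HYAL3*, chr3:50336787-50337086, minus strand: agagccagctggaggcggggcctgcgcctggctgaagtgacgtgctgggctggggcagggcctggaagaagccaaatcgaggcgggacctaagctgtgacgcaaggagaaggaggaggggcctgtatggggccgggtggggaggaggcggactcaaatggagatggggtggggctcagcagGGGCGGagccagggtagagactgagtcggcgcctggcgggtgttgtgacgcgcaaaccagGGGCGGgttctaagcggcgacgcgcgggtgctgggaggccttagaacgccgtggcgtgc

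The *CD44* window held 2 GC boxes and the *HYAL3* window 2. The *HMMR* window held 1 GC box and 5 CCAAT matches, of which the last 2 overlap in a palindrome and so mark a single stretch. Among 19207 promoters cut the same way, 62.2% held a GC box, 36.0% a CCAAT box, 8.8% the E-box and 5.35% the AP-1 motif. At least 5 CCAAT matches were held by 0.385% (74 promoters). That cut-off equals the count of the *HMMR* window itself, so this share is a description and not a test. Neither the E-box nor the AP-1 motif was found in the 8 member promoters searched, and the *HAS2* promoter was not used here. In the other windows searched, *CEMIP* had 3 GC boxes, *HYAL1* and *UGDH* had 2 each, and *HAS3* and *HYAL2* had no match to any of the 4 motifs.

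*UGDH*, the UDP-glucose dehydrogenase (ENSG00000109814, GRCh37 chr4:39500375-39529931, minus strand), supplies a precursor that the synthases share with other glucuronate users. Its counts, in the order of the replicate numbers as for all genes below, were 311, 430 and 143 with scramble and 243, 302 and 360 with the siRNAs. Scaled for depth, the conditions overlapped, at 40.8 ± 3.80 CPM (SD, n = 3) with scramble and 39.8 ± 5.33 with the siRNAs. The difference of -0.03 on the log2 scale (SE 0.15, 95% interval -0.35 to 0.29, adjusted p = 0.926) did not pass the test.

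*HAS2* (ENSG00000170961, GRCh37 chr8:122624356-122653680, minus strand) encodes the synthase best known for long hyaluronan chains. Its counts were 15, 27 and 11 with scramble and 2, 6 and 7 with the siRNAs. The corresponding levels were 1.76, 2.69 and 3.33 CPM against 0.277, 0.863 and 0.822 CPM, so the lowest scramble library lay above every siRNA library. *HAS2* fell by 1.87 on the log2 scale (SE 0.45, 95% interval -2.83 to -0.91, adjusted p = 0.0289), with 27.4% of the scramble level left. Summed over the libraries, 53 scramble and 15 siRNA counts gave a depth-scaled ratio of 0.273, with an exact 95% interval of 0.143 to 0.492 that covers counting error only. These are few reads, and the call was lost when any of 5 of the 6 libraries was left out. The adjusted p was 0.0505, 0.147 and 0.0842 without scramble replicate 1, 2 or 3, and 0.0536 and 0.0578 without siRNA replicate 1 or 2, although the direction was the same each time (-2.11 to -1.52). The antisense gene *HAS2-AS1*, which shares 251 exonic bases with it, had at most 2 counts in any library.

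*HAS3* (ENSG00000103044, GRCh37 chr16:69139556-69152622, plus strand), the synthase known for shorter chains, had low counts as well. They were 31, 26 and 10 with scramble and 27, 22 and 33 with the siRNAs. Levels were 3.08 ± 0.526 and 3.59 ± 0.378 CPM (SD, n = 3) and overlapped. The log2 difference was 0.23 (SE 0.27, 95% interval -0.35 to 0.81, adjusted p = 0.656). *HAS3* shares 365 exonic bases, 7.02% of its exons, with *CHTF8* on the opposite strand, which had far more counts (355 to 1224 per library) and a log2 difference of -0.31 (adjusted p = 0.146), and whether the counting used strand is not given in the sources used here. *HAS1*, the remaining synthase, had 1 count in a single library.

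Each library therefore held between 21 and 53 reads on the synthases *HAS2* and *HAS3*, and their division was read within each library. *HAS2* took 15 of 46 reads in scramble replicate 1 (32.6%, exact 95% interval 19.5 to 48.0), 27 of 53 in replicate 2 (50.9%, 36.8 to 64.9) and 11 of 21 in replicate 3 (52.4%, 29.8 to 74.3). With the siRNAs it took 2 of 29 (6.90%, 0.846 to 22.8), 6 of 28 (21.4%, 8.30 to 41.0) and 7 of 40 (17.5%, 7.34 to 32.8). The mean share was 45.3% ± 11.0 with scramble and 15.3% ± 7.52 with the siRNAs (SD, n = 3), and 50.2% and 18.0% when counts were divided by exon length first. The shares of the conditions did not overlap, but the counting intervals of single libraries did, and since the share uses the *HAS2* counts already tested it was given no test of its own.

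**Figure D2:**
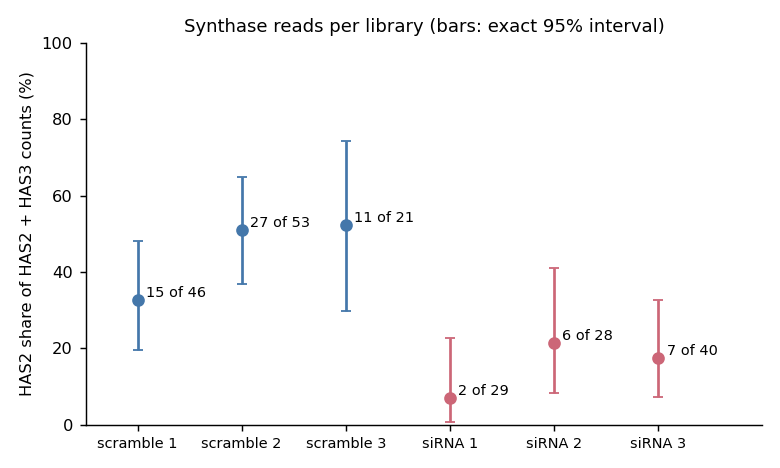
Percent of *HAS2* plus *HAS3* reads that fell on *HAS2* in each library, with exact 95% intervals for counting error and the reads written beside each point. Points of the scramble libraries run from 32.6% to 52.4% and those of the siRNA libraries from 6.90% to 21.4%.

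The 3 hyaluronidase genes *HYAL3*, *HYAL1* and *HYAL2* are neighbours on the minus strand of chromosome 3 and differed widely in level. *HYAL2* (ENSG00000068001, GRCh37 chr3:50355221-50360213), which encodes the membrane-anchored hyaluronidase, had 348, 335 and 135 counts with scramble and 294, 264 and 300 with the siRNAs. Its levels were 38.3 ± 4.32 and 38.0 ± 2.76 CPM (SD, n = 3), with a log2 difference of -0.01 (SE 0.14, 95% interval -0.32 to 0.31, adjusted p = 0.988). *TUSC2*, which shares 509 exonic bases with *HYAL2* on the same strand through transcripts other than the canonical ones, differed by 0.01 (adjusted p = 0.984).

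*HYAL3* (ENSG00000186792, GRCh37 chr3:50330262-50336836), whose product has little known activity of its own, had 12, 13 and 8 counts with scramble and 24, 22 and 20 with the siRNAs. In CPM these were 1.41, 1.29 and 2.42 against 3.33, 3.16 and 2.35, so scramble replicate 3, the shallowest library, lay just above siRNA replicate 3. The log2 difference of 0.92 (SE 0.34, 95% interval 0.19 to 1.64) did not pass the edgeR test (adjusted p = 0.13, with 0.0177 before adjustment). The depth-scaled ratio of the summed counts, 66 against 33, was 1.93 (1.25 to 3.03, counting error only). The first exon of the canonical *HYAL3* transcript is also the first exon of *NAA80*, an N-terminal acetyltransferase gene, and the genes share 232 exonic bases on the same strand, 11.8% of the *HYAL3* exons. *NAA80* had 30 to 101 counts per library and a log2 difference of 0.24 (adjusted p = 0.507). *IFRD2*, which shares 43 bases, differed by -0.03 (adjusted p = 0.965). How reads on shared exons were assigned is not given in the sources used here.

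**Figure D3:**
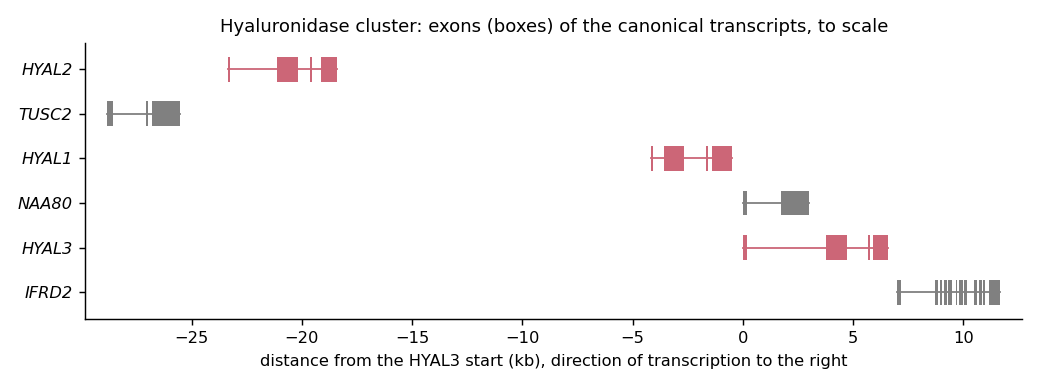
Exons (boxes) of the canonical transcripts of *HYAL3*, *HYAL1* and *HYAL2* (red) and of *NAA80*, *IFRD2* and *TUSC2*, which share annotated exonic bases with them (grey), drawn to scale against the distance in kb from the *HYAL3* start, with transcription to the right. *HYAL3* and *NAA80* begin with the same exon.

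*HYAL1* (ENSG00000114378, GRCh37 chr3:50337321-50349812, minus strand), the lysosomal and serum hyaluronidase, had 2, 2 and 0 counts with scramble and 3, 0 and 0 with the siRNAs, at or under the floor of 3 counts in every library. *CEMIP* (ENSG00000103888, GRCh37 chr15:81071684-81244117, plus strand), also known as KIAA1199, had 4, 3 and 0 counts with scramble and 0, 2 and 2 with the siRNAs. Neither gene was tested and no fold is given, since a difference was not detectable at this depth. *MESD*, on the strand opposite to *CEMIP* with 224 shared exonic bases, had 303 to 822 counts and a log2 difference of 0.07 (adjusted p = 0.782).

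*CD44* (ENSG00000026508, GRCh37 chr11:35160429-35253949, plus strand), the main cell surface receptor for hyaluronan, had the most counts of the 9 genes, namely 1141, 1351 and 471 counts with scramble and 553, 703 and 844 with the siRNAs. In CPM these were 134, 134 and 142 against 76.7, 101 and 99.1, and every siRNA library lay under every scramble library. *CD44* fell by 0.57 on the log2 scale (SE 0.13, 95% interval -0.85 to -0.28, adjusted p = 0.0274), with 67.5% of the scramble level left. It was past the threshold under all 6 alternatives that kept every library. It was not past it without scramble replicate 1 (adjusted p = 0.0952), 2 (0.101) or 3 (0.096) or without siRNA replicate 2 (0.0546), where the log2 difference lay between -0.63 and -0.54. Reads were summed over the gene, so the standard and variant exon forms of *CD44* could not be read separately, and the antisense genes *CD44-AS1* and *CD44-DT* had 0 counts.

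*HMMR* (ENSG00000072571, GRCh37 chr5:162887209-162918947, plus strand) encodes a hyaluronan-binding protein that also sits on the mitotic spindle. Its counts were 18, 12 and 2 with scramble and 3, 17 and 7 with the siRNAs. The conditions overlapped, at 1.30 ± 0.758 and 1.23 ± 1.07 CPM (SD, n = 3), and the gene was under the filter. The depth-scaled ratio of the summed counts was 0.814 (0.469 to 1.40, counting error only), and DESeq2, which kept it, gave a log2 difference of -0.18 (adjusted p = 0.939). The interval leaves room for the size of change seen in *CD44*.

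**Figure D4:**
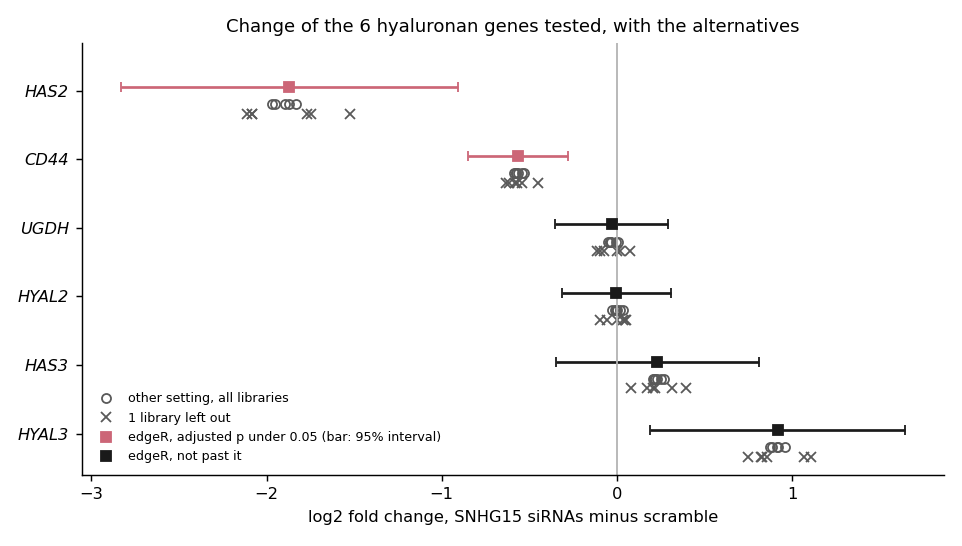
Log2 fold change, *SNHG15* siRNAs minus scramble, of the 6 hyaluronan genes tested. Squares are edgeR estimates with 95% intervals (red where the adjusted p is under 0.05), circles are other settings with all libraries and crosses leave out 1 library. *HAS2* and *CD44* stay left of 0 throughout, from -2.11 to -1.52 and from -0.63 to -0.45, and the *HYAL3* interval, 0.19 to 1.64, lies right of 0 although its adjusted p is 0.13.

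Levels of different genes were compared per kb of exon. With scramble, *CD44* led at 13.7 CPM per kb, followed by *UGDH* at 10.1 and *HYAL2* at 8.66. *HYAL3* (0.867), *HAS2* (0.611), *HAS3* (0.592) and *HMMR* (0.331) followed well below, and *HYAL1* (0.0468) and *CEMIP* (0.0336) came last. The ranges over libraries of neighbours in this order overlapped except between *CD44* and *UGDH*, between *HYAL2* and *HYAL3* and between *HMMR* and *HYAL1*. With the siRNAs, *UGDH* (9.89), *CD44* (9.24) and *HYAL2* (8.59) overlapped with one another, and *HAS2* at 0.154 came after *HYAL3* (1.50), *HAS3* (0.691) and *HMMR* (0.312). The range of *HAS2* over the siRNA libraries overlapped those of *HMMR* and *HYAL1*, so its place beside these is not settled. These lengths are the union of annotated exons. With the length of the canonical transcript, tried after the values were seen, the order with scramble became *CD44* (25.2), *HYAL2* (20.4) and *UGDH* (13.4), and *HAS3* (0.735) came before *HAS2* (0.611), so the order of these pairs depends on the length used.

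Other genes of hyaluronan biology were read from 5 lists. Of 20 genes listed for the supply and use of the UDP-sugars, all were tested. *GFPT2*, a rate-limiting enzyme of the hexosamine pathway that leads to UDP-N-acetylglucosamine, was the only one called in this list by edgeR and by DESeq2. It was higher with the siRNAs, at 273 ± 34.4 against 184 ± 17.5 CPM (SD, n = 3), a log2 difference of 0.56 (SE 0.13, adjusted p = 0.0289). Its adjusted p was 0.102, 0.0922 and 0.126 without scramble replicate 1, 2 or 3 and 0.0855 without siRNA replicate 2. The median of the list was 0.07, and 9 of the 20 differences were negative. The 2 lysosomal glycosidases read here, which take apart hyaluronidase products, were not called by edgeR or by DESeq2. *GUSB*, the beta-glucuronidase, differed by -0.35 (edgeR adjusted p = 0.108). *HEXA*, a hexosaminidase subunit, differed by 0.14 (adjusted p = 0.612), and the median of the pair was -0.10.

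Most of the other synthases, hyaluronidases, receptors and matrix partners were at or near 0. Of 25 genes in that list, 23 had at most 3 counts in every library and 12 were listed at 0 throughout, among them the link protein *HAPLN1* and the proteoglycan *VCAN*. The 2 tested genes, the hyaluronidase *CEMIP2* (-0.58, adjusted p = 0.255) and the proteoglycan *BCAN* (0.10, adjusted p = 0.714), were not called by edgeR or by DESeq2, and in edgeR neither had an unadjusted p under 0.05. The median over this pair was -0.24. *BCAN* was well counted, at 53.3 ± 6.63 CPM (SD, n = 3) with scramble and 56.6 ± 2.99 with the siRNAs. Per kb of exon it had 11.2 CPM with scramble, beside 13.7 for *CD44* and 10.1 for *UGDH*. *CEMIP2* had 4.92 ± 2.03 CPM with scramble and 3.53 ± 0.0762 with the siRNAs.

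Among 14 partners of *CD44*, 5 were at the floor, 9 were tested and 0 were called by edgeR or by DESeq2. *ADAM17*, a shedding protease, had the lowest edgeR adjusted p of the list (0.0994), with a log2 difference of -1.08. *MSN*, which links CD44 to actin, came next (-0.67, adjusted p = 0.105). The median of the list was -0.08, with 7 of 9 differences negative (6 with upper-quartile factors, and 5 without scramble replicate 2 or siRNA replicate 3). *RDX*, another actin linker, was listed at 0 in every library.

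Of 20 spindle and mitosis genes around *HMMR*, 19 were tested, and *TTK* was listed at 0. *TPX2*, a spindle assembly factor, was lower with the siRNAs, at 119 ± 7.52 against 179 ± 7.91 CPM (SD, n = 3), a log2 difference of -0.59 (SE 0.12, adjusted p = 0.0134). *CCNA2*, the cyclin of S phase and G2, was lower too, at 83.7 ± 12.7 against 123 ± 4.71 CPM, a difference of -0.55 (SE 0.13, adjusted p = 0.0316). The other 17 were not called by edgeR. DESeq2 called the same pair and *RANBP9* (-0.49, adjusted p = 0.028), which had an edgeR adjusted p of 0.0542. Without scramble replicate 1 or 2, *TPX2* had an adjusted p of 0.0557 and 0.079. *CCNA2* had 0.115, 0.101 and 0.105 without scramble replicate 1, 2 or 3 and 0.0909 without siRNA replicate 2. All 19 differences were negative, with a median of -0.27 beside 0.00 for all genes tested. In 10 the conditions did not overlap (28.8% of all genes tested did not). The 19 differences stayed negative under each scaling tried, and 17 were negative without siRNA replicate 3 and 18 without scramble replicate 3. Per kb of exon, *TPX2* had 49.7 CPM with scramble, against the 0.331 of *HMMR*. Over the 5 lists edgeR called 3 of 52 genes tested (5.77%), close to the 5.36% of all genes, and DESeq2 called 4. The edgeR count was 0 without scramble replicate 1 or 2, 1 without scramble replicate 3 or siRNA replicate 2, and 5 without siRNA replicate 1.

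**Figure D5:**
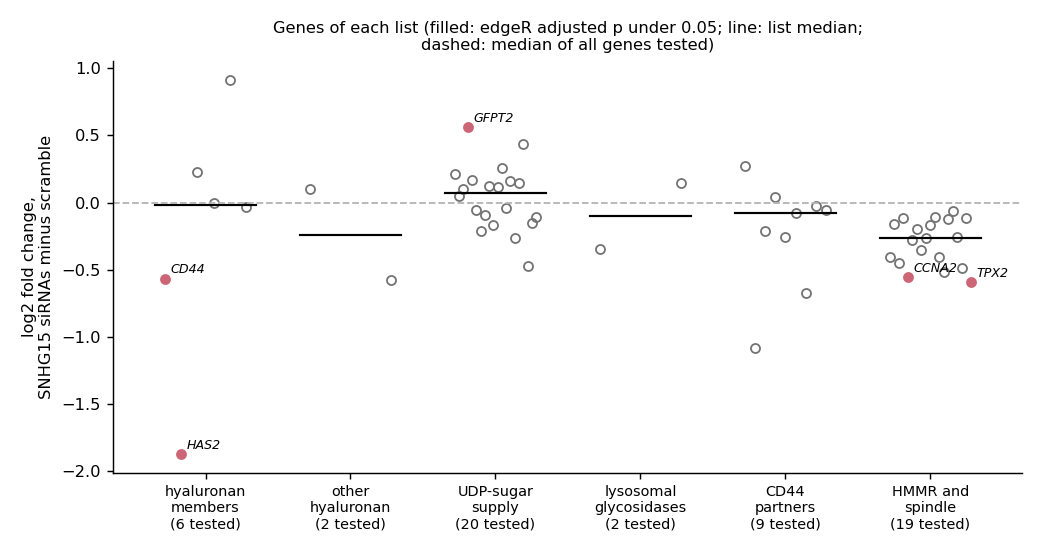
Log2 fold change, *SNHG15* siRNAs minus scramble, of each tested gene of the hyaluronan set and of the 5 related lists (points spread sideways so that they can be seen). Filled points have an edgeR adjusted p under 0.05, solid lines are list medians and the dashed line is the median of all genes tested. The median of the spindle list is -0.27 and all its 19 points lie under 0.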

How the data were processed

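RNA of 3 scramble and 3 *SNHG15* siRNA libraries of LoVo cells was sequenced. The authors deposited counts of reads per Ensembl gene, not normalized. The methods of the study name bowtie2 and hg19, and the submitters' processing notes list STAR, featureCounts and hg19 without their role. The annotation counted, the use of strand and the treatment of reads with several placements are not given in the sources used here, so counts of overlapping genes are uncertain beyond their spread. Groups and replicate numbers came from the labels, and 0 columns were left unassigned.

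The analysis used edgeR 4.0.16 (R 4.3.3). After filterByExpr (minimum count 10, total 15) and TMM scaling, the quasi-likelihood test compared the conditions over 12507 genes with Benjamini-Hochberg adjustment at 0.05, without a block. DESeq2 1.42.0, the tool of the study, was an alternative, beside RLE and upper-quartile factors, no filter, at least 10 counts in every library, the replicate number as a block, and leaving out each library. Each SE was derived from its F statistic. The steps were tested on simulated data. Intervals of counts and shares are exact at 95% and cover counting error only, and 3 counts per library was the floor. With 3 libraries against 3, a two-sided exact permutation test of a single gene cannot go below 0.1.

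Names, exons and positions came from GENCODE release 44 on GRCh37, in which 8012 identifiers had no entry, and promoter sequences from the GRCh37 genome. Named genes were the 9 members, *SNHG15*, the genes past the threshold in each list (at most 5 by smallest p, or the gene with the smallest p where none passed), counted genes that overlap a member, and the most and least abundant gene of each marker list. *GUSB*, *HEXA*, *CEMIP2*, *ADAM17*, *MSN*, *RANBP9*, *RDX*, *TTK*, *HAS1*, *HAPLN1*, *VCAN*, *AXL*, *ZEB1*, *VIM*, *POLR2B* and further markers were named after their values were seen. The members and lists were chosen with earlier results of these data known, the *HAS2* change among them, and a result already seen there is not independent support. A few genes of the lists are not reported here and were left out of the list counts.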

Additional observations from a re-analysis of the deposited data

How the results depend on the processing

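*SNHG15*, *HAS2* and *CD44* kept their direction and call under every alternative with all libraries that could give a value. *HAS2* has no value with at least 10 counts in every library, and under that filter 1 member was called in place of 2. *HAS3* and *HYAL3* kept their direction and were not called in any alternative run, and *HYAL3* likewise has no value with at least 10 counts in every library. *HYAL2* and *UGDH* lay near 0 and changed sign. *HYAL2* was 0.0182 with the stricter filter and 0.0321 with upper-quartile factors, and -0.10 to 0.0513 with 1 library left out. *UGDH* was 0.0070 with upper-quartile factors and -0.11 to 0.075 with 1 library left out.

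Leaving out 1 library gave -2.11 to -1.52 for *HAS2*, -0.63 to -0.45 for *CD44*, 0 to 2 members called, 0 to 5 list genes called and 139 to 812 genes called of all, lowest without scramble replicate 2. Without a filter on low counts, 1312 genes and 5 list genes were called. Upper-quartile factors shifted the median of all genes to 0.04 and split the calls into 515 higher and 230 lower, against 392 and 279. Same-numbered libraries showed no clear shared deviation (correlations of -0.07, 0.16 and -0.04). Those with different numbers lay between -0.17 and 0.14. No pairing by number was seen, though 3 libraries per condition cannot exclude it. The replicate block gave 543 calls, 2 of them members (*HAS2* -1.97, *CD44* -0.58) and 3 list genes. The difference of *UGDH* and *HYAL2* with scramble, 1.48 CPM per kb of exon union, was -6.91 per kb of canonical transcript, an alternative chosen after seeing the data. Depth limits *HMMR*, *HYAL1*, *CEMIP*, *HAS2* and *HYAL3* most, and DESeq2 gave no adjusted p for *HYAL1* and *CEMIP*.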
